A study of Mus musculus with 11 samples.

Results

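The 8 genes described here are the transcription factors Zeb1, Zeb2, Snai1, Snai2, Twist1, Twist2, Prrx1 and Tcf4, drivers of the epithelial-mesenchymal transition (EMT). They were chosen by name from 21846 genes in the count table, and all 8 were found. RNA sequencing had been done on 11 libraries of mouse mammary carcinoma lines derived from FVBhuHER2 virgin females, which carry a human HER2 transgene. MamBo89HER2stable, from tumor A, was HER2-positive, and its 4 libraries were untreated cells named AG3, untreated cells, a culture with trastuzumab at 30 µg/ml for 30 days followed by 30 days of withdrawal, and a culture with 60 days of trastuzumab. The study counts a clone of MamBo89 among its HER2-positive material, and AG3 may be that clone, although its label does not call it one. MamBo43HER2labile, from tumor B, gave 1 untreated HER2-positive library. MamBo43 TRT, the name for MamBo43 cells that had lost HER2 under trastuzumab, gave 2 libraries, 1 for each schedule, classed as HER2-negative although a minority of HER2-positive cells persisted in such cultures. MamBo38HER2loss, derived from a tumor that grew after injection of MamBo43 cells, gave 4 HER2-negative libraries, 2 untreated and 1 for each schedule. All 6 HER2-negative libraries therefore descend from tumor B, and 4 of the 5 HER2-positive libraries from tumor A, so HER2 status was compared across tumors as well as within tumor B. Each line stems from 1 tumor, and p-values measure only the spread between these libraries.

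In the EMT, epithelial cells give up cell-cell adhesion and polarity and take on a spindle-shaped, migratory form. Zeb and Snail factors are zinc finger proteins that bind E-boxes, short DNA motifs, in the promoters of epithelial genes such as Cdh1 and repress them. Twist factors are basic helix-loop-helix (bHLH) proteins that bind E-boxes with class I partners such as the product of Tcf4 (E2-2, not the Wnt pathway factor Tcf7l2), and Prrx1 is a homeodomain factor of mesenchymal tissue. In mammary epithelium the Grhl, Ovol and Esrp genes act on the other side of this switch.

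Because the repressors among these factors act through E-boxes, 3 promoter sequences are shown, 1 from a member and 2 from epithelial genes described later. Each is the 250 bases before the start of the gene in RefSeq, build GRCm38.p6, written 5′ to 3′ on the strand of the gene, with the E-box forms CACCTG and CAGGTG (the same motif read on either strand) in capitals. The Snai1 window is chr2:167537945-167538194 on the + strand, and its E-box begins 126 bases before the start. The Epcam window is chr17:87635729-87635978 on the + strand, with E-boxes that begin 187 and 19 bases before the start. The Cldn4 window is chr5:134946935-134947184 on the - strand, with an E-box that begins 14 bases before the start.
Snai1: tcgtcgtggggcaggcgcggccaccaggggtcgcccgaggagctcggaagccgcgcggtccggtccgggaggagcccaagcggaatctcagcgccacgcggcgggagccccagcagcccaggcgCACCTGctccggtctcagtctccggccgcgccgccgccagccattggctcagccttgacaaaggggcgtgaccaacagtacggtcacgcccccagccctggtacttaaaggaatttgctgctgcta
Epcam: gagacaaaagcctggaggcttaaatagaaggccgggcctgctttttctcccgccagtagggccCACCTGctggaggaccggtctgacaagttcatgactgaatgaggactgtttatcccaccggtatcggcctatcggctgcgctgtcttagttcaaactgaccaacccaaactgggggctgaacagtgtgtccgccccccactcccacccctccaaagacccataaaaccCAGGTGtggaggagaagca
Cldn4: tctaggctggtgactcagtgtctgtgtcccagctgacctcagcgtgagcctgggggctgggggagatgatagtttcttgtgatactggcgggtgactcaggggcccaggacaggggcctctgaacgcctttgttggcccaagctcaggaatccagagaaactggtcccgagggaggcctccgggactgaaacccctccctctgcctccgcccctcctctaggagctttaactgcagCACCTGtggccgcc
A promoter was found for 5 of the 8 members, and 1 of these, Snai1, held the motif. Of 20 epithelial genes known as targets of Snail or Zeb repression, 14 had a promoter, and 10 of these held the motif (71.4%). So did 1 of 10 mesenchymal genes with a promoter (10%) and 5252 of the 27025 genes in the reference (19.4%). A gene was counted if any of its promoters held the motif. A match is a description of the letters and not a bound site.

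The libraries held between 17040454 and 27127662 counts, with a median of 20592201. Levels are given as CPM, counts brought to one fixed library total with sizes scaled by the TMM method, and 3 counts, taken as the detection floor, correspond to between 0.113 and 0.179 CPM. Genes were tested with edgeR's quasi-likelihood test, and a gene was called at a Benjamini-Hochberg adjusted p under 0.1 over all genes tested and a log2 difference of 1 or more in either direction. The epithelial cell markers Epcam, Cdh1, Krt8 and Krt18 summed to between 2284 and 3715 CPM in MamBo89, 3147 in MamBo43, 1746 after withdrawal and 276 after 60 days in MamBo43 TRT, and 1.25 to 2.46 in MamBo38, while the fifth marker on that list, Krt19, was near 0 throughout. Of 5 fibroblast markers, Lum was at 0 in every library and Pdgfra, a growth factor receptor, was the highest in the HER2-negative libraries, with a mean of 661 CPM. Thy1, a surface glycoprotein, was at 2.16 CPM in MamBo43, 14.0 and 6.08 in MamBo43 TRT, at most 0.0558 in MamBo38 and 0 in MamBo89. Of 5 leukocyte markers, Cd3e and Adgre1 were at 0 in every library and only Cd68, a lysosomal protein, exceeded 1 CPM. The 5 endothelial markers summed to at most 1.83 CPM in any library, and of 5 pericyte markers Notch3 carried nearly all of the sum of 10.02 to 227 CPM.

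**Figure D1:**
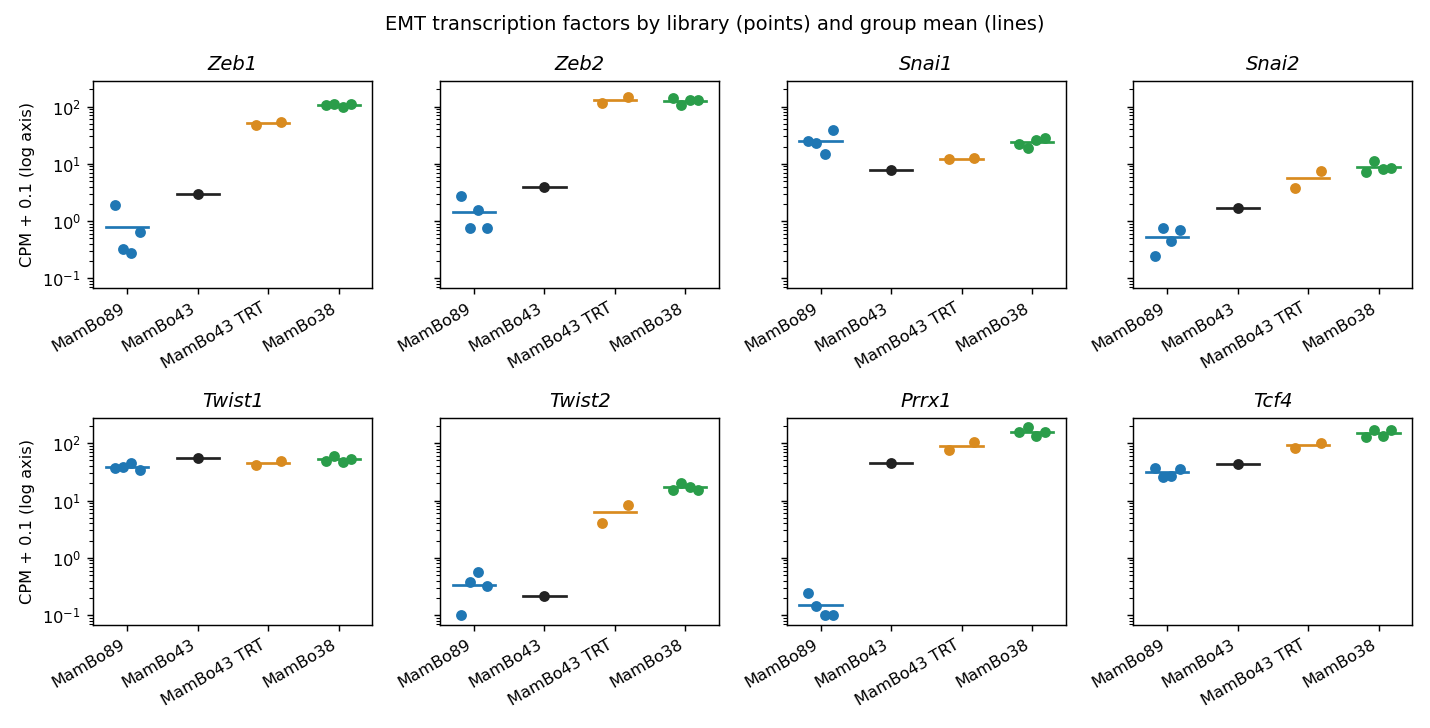
Level of each EMT transcription factor (CPM plus 0.1, log axis) in the 11 libraries, with points for libraries and lines for group means. Zeb1, Zeb2, Snai2 and Twist2 stand higher in all 6 HER2-negative libraries, Prrx1 is already at 44.7 CPM in MamBo43, and Twist1 stays between 33.9 and 59.7 CPM.

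The Zeb genes were low in the HER2-positive and high in the HER2-negative libraries. Zeb1, a zinc finger repressor of Cdh1, was at 1.80, 0.231, 0.175 and 0.551 CPM in MamBo89 (AG3, untreated, withdrawn and 60 days, in the order used throughout), 2.87 in MamBo43, 47.6 after withdrawal and 54.0 after 60 days in MamBo43 TRT, and 106, 110, 98.4 and 111 in MamBo38. No HER2-positive library came near a HER2-negative one. Across 6 HER2-negative and 5 HER2-positive libraries Zeb1 was 6.25 ± 0.73 higher on the log2 scale (SE, edgeR adjusted p = 4.99e-05). Zeb2, its paralog with the same type of DNA binding, was at 2.67, 0.646, 1.46 and 0.662 CPM in MamBo89, 3.77 in MamBo43, 116 and 144 in MamBo43 TRT, and 138, 106, 131 and 128 in MamBo38. Here the MamBo43 TRT libraries stood at the level of MamBo38, whereas for Zeb1 they stood below it. The log2 fold change of Zeb2 by HER2 status was 6.09 ± 0.49 (edgeR adjusted p = 5.71e-06).

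The Snail genes did not move together. Snai1, which encodes Snail, was at 24.5, 22.6, 14.9 and 39.1 CPM in MamBo89, 7.78 in MamBo43, 12.1 and 12.5 in MamBo43 TRT, and 22.5, 19.2, 25.7 and 27.6 in MamBo38. The HER2 groups overlapped, since the lowest and the highest value both came from HER2-positive libraries, and the log2 difference of -0.13 ± 0.38 was not called (edgeR adjusted p = 0.793). With the tumor of origin as a covariate, which compares HER2 status within tumor B, this difference was 1.35 (edgeR adjusted p = 0.117). Snai2, which encodes Slug, was at 0.146, 0.646, 0.350 and 0.606 CPM in MamBo89, 1.61 in MamBo43, 3.63 and 7.46 in MamBo43 TRT, and 6.99, 10.9, 8.11 and 8.40 in MamBo38. These groups did not overlap, and Snai2 was higher in the HER2-negative libraries by 3.47 ± 0.55 on the log2 scale (edgeR adjusted p = 0.000365), although its level remained low in all of them.

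The Twist genes also differed from each other. Twist1 was at 36.8, 37.8, 44.4 and 33.9 CPM in MamBo89, 54.5 in MamBo43, 41.4 and 48.8 in MamBo43 TRT, and 48.0, 59.7, 47.2 and 52.5 in MamBo38. It was expressed in every library, the groups overlapped, and the log2 difference of 0.26 ± 0.14 was not called (edgeR adjusted p = 0.153). Twist2 was at 0, 0.277, 0.467 and 0.221 CPM in MamBo89, 0.118 in MamBo43, 3.93 and 8.41 in MamBo43 TRT, and 15.3, 20.2, 17.1 and 15.3 in MamBo38. It was at or near the detection floor in the HER2-positive libraries, which held 0 to 8 counts each, and was higher in the HER2-negative ones by 5.94 ± 0.74 on the log2 scale (edgeR adjusted p = 7.26e-05). In the GENCODE annotation 46.5% of the exon bases of Twist2 overlap an antisense gene, Gm29100, and the library kit kept no strand, so reads of both could have been counted as Twist2.

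Prrx1 was near or at 0 in MamBo89 and present in every library that descends from tumor B. It was at 0.146, 0.0461, 0 and 0 CPM in MamBo89, 44.7 in MamBo43, 76.6 and 103 in MamBo43 TRT, and 157, 191, 134 and 156 in MamBo38. The 4 MamBo89 libraries held 4 counts of Prrx1 in all, and the single MamBo43 library held 1137. The HER2 comparison put the log2 difference at 3.91 ± 1.60 (edgeR adjusted p = 0.0592). Without MamBo43 the same comparison gave 11.21, with the trastuzumab schedule as a covariate it gave 6.11, and with the library code as a covariate its adjusted p was 0.101, above the threshold. The call was also lost with untreated libraries alone (3.52, edgeR adjusted p = 0.287) and with libraries that share a code (3.79, edgeR adjusted p = 0.175). Tcf4, the class I bHLH partner, was at 36.7, 25.2, 26.8 and 35.01 CPM in MamBo89, 42.5 in MamBo43, 83.9 and 101 in MamBo43 TRT, and 128, 170, 133 and 169 in MamBo38. It was present everywhere and rose by less than the Zeb genes, with 1.97 ± 0.22 in log2 (edgeR adjusted p = 3.76e-05) and no overlap between the HER2 groups.

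Of the 8 members, 6 were called higher and 0 lower in the HER2-negative libraries, where 15.8% of the 12364 genes tested were called higher and 17% lower. The same 6 did not overlap between the HER2 groups, as did 34.9% of all genes. Zeb1, Snai2, Twist2 and Prrx1 had fewer than 10 counts in at least 1 HER2-positive library and entered the test through the libraries where they were high, so the count is a description. Within tumor B alone the differences were smaller for Zeb1 (log2 fold change 4.93, adjusted p = 0.0115), Zeb2 (5.07, 0.00131), Snai2 (2.23, 0.0566), Tcf4 (1.62, 0.0157) and Prrx1 (1.61, 0.0653) and larger for Twist2 (6.75, 0.0125), from edgeR with the tumor as a covariate, and all 6 remained called. In bulk RNA, fewer cells with a transcript and less transcript per cell cannot be told apart. When counts were summed for each line and HER2 status, leaving 2 sums against 2, no member was called and the lowest adjusted p was 0.115.

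On a scale that can be compared between genes, CPM per kb of annotated exon, Twist1 ranked highest of the members in all 4 groups. In MamBo89 it stood at 23.5 ± 2.7 CPM per kb (SD, n = 4) and Snai1 at 15.6 ± 6.2, and together they made up 57.8% and 38.4% of the sum of the 8 genes. Their ranges over the 4 libraries overlapped. In MamBo43 the order was Twist1 at 33.5, Snai1 at 4.80, Prrx1 at 4.04 and Tcf4 at 1.55 CPM per kb, with the other members under 1. In MamBo43 TRT, Twist1 at 27.7 ± 3.2 was followed by Prrx1 at 8.11 ± 1.69, Snai1 at 7.57 ± 0.17 and Zeb2 at 6.53 ± 1.01 (n = 2). Prrx1 and Snai1 did not differ beyond their spread, and the gap from Snai1 to Zeb2 was about the SD of Zeb2. In MamBo38, Twist1 at 31.9 ± 3.5 was followed by Snai1 at 14.6 ± 2.3, Prrx1 at 14.4 ± 2.1, Zeb1 at 10.3 ± 0.6 and Zeb2 at 6.30 ± 0.69. Snai1 and Prrx1 did not differ beyond their spread there, nor did Zeb2, Tcf4 (5.47 ± 0.83) and Twist2 (5.34 ± 0.73). The sum of the 8 genes was 40.6 CPM per kb in MamBo89, 45.2 in MamBo43, 62.9 in MamBo43 TRT and 92.6 in MamBo38. The exon length takes in all annotated transcripts, from 1.62 kb for Snai1 to 27.4 kb for Tcf4, so genes with many alternative exons are placed too low by this scale.

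**Figure D2:**
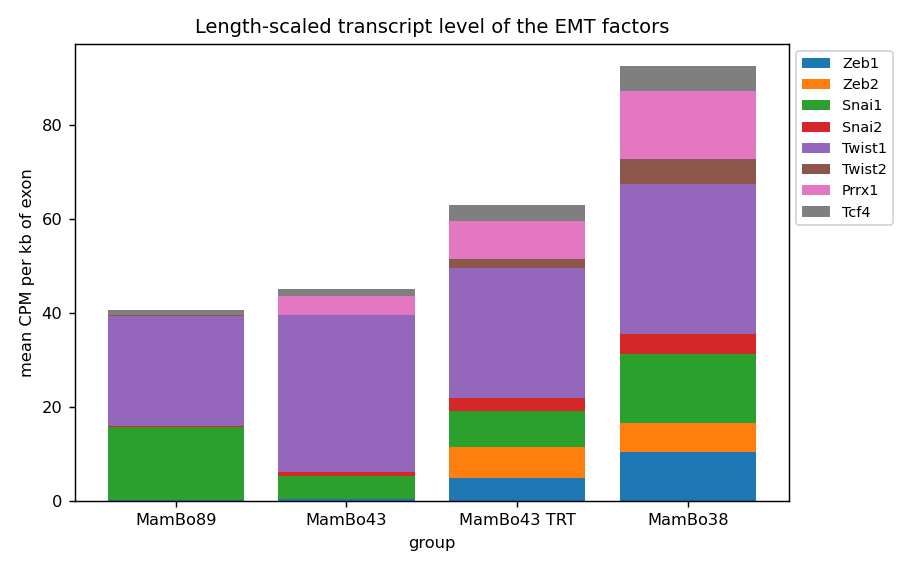
Mean level of the 8 factors per kb of exon in each group, stacked. Twist1 and Snai1 fill most of the bar in MamBo89, and the bar grows from 40.6 CPM per kb there to 92.6 in MamBo38 as Zeb1, Zeb2, Twist2 and Prrx1 appear.

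The question of which factors differ before HER2 is lost was addressed by untreated MamBo43 against MamBo89, both HER2-positive but from different tumors. Prrx1 was the member with the largest difference. From 1137 counts against 4, its ratio was 867, with a 95% exact interval of 338 to 3187 that covers counting error only. In a fit of all 4 groups, which assumes that the lone MamBo43 library varies like the others, Prrx1 was higher by 9.60 ± 0.43 on the log2 scale (edgeR adjusted p = 4.26e-07). Zeb1 (2.02 ± 0.67), Snai2 (1.87 ± 0.59) and Zeb2 (1.46 ± 0.52) were also called higher, with edgeR adjusted p of 0.0598, 0.0485 and 0.0767, at levels no higher than 3.77 CPM. Snai1 was called lower, by -1.70 ± 0.46 (edgeR adjusted p = 0.026). Twist1 (0.51 ± 0.19, edgeR adjusted p = 0.0897) stayed under the fold minimum, and Tcf4 (0.46 ± 0.25) and Twist2 (-0.96 ± 1.15) did not pass the test. Thus 4 members were called higher and 1 lower, where 11% and 7.86% of the 13782 genes tested were. Zeb1, Snai2 and Prrx1 had fewer than 10 counts in at least 1 MamBo89 library, so this count is a description. Of these calls, only that of Prrx1 held with untreated libraries alone or with the 2 groups alone, and without MamBo89 replicate 2 or 4 the Zeb genes were lost and 3 calls remained.

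**Figure D3:**
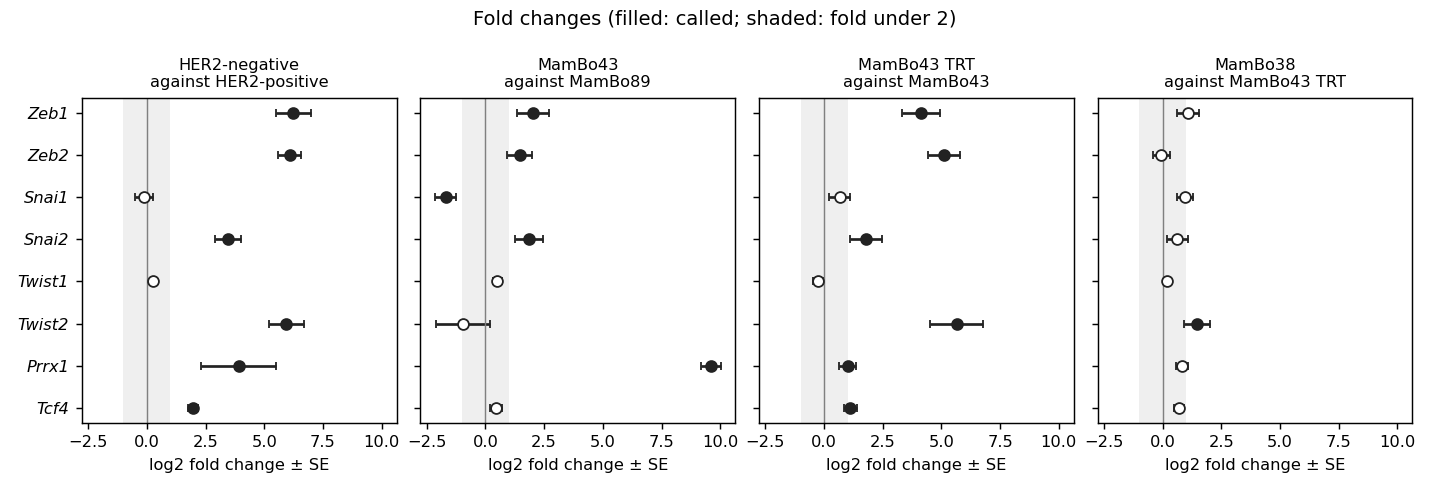
Log2 fold change with its SE for each member in 4 comparisons, filled where called. The comparisons are HER2-negative against HER2-positive libraries, MamBo43 against MamBo89, MamBo43 TRT against MamBo43, and MamBo38 against MamBo43 TRT. Prrx1 stands at 9.60 in the MamBo43 against MamBo89 panel, and Zeb2 at 5.11 and Zeb1 at 4.15 in the MamBo43 TRT against MamBo43 panel.

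The change in MamBo43 cells that lost HER2 under trastuzumab was addressed by MamBo43 TRT (n = 2) against MamBo43 (n = 1), where treatment and HER2 loss cannot be told apart. Zeb2 was higher by 5.11 ± 0.70 on the log2 scale (edgeR adjusted p = 0.000652) and Zeb1 by 4.15 ± 0.81 (edgeR adjusted p = 0.00413). Twist2 went from 3 counts in the MamBo43 library to 80 and 220, a ratio of 54.7 with a 95% exact counting interval of 18.5 to 267, and was called (edgeR adjusted p = 0.00453). Snai2 (1.79 ± 0.69), Tcf4 (1.13 ± 0.29) and Prrx1 (1.01 ± 0.37) were called with smaller differences and edgeR adjusted p of 0.0735, 0.0151 and 0.0597. Snai1 (0.66 ± 0.46, edgeR adjusted p = 0.302) and Twist1 (-0.27 ± 0.22, edgeR adjusted p = 0.373) were not. In all, 6 members were called higher and 0 lower, against 13.6% and 15.5% of all 13782 genes. The fibroblast markers Pdgfra and Thy1 were called higher in the same contrast, and their part in these values was not tested. Without the library of 60 days, 3 calls remained, those of Zeb1, Zeb2 and Twist2.

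Both MamBo43 TRT libraries could be set side by side. All 8 members were higher after 60 days than after 30 days with and 30 days without trastuzumab, as were 6166 of 12364 genes (49.9%). The ratio was 2.14 for Twist2 and 2.05 for Snai2, with 95% exact counting intervals of 1.65 to 2.80 and 1.56 to 2.72. It was 1.35 for Prrx1, 1.24 for Zeb2, 1.20 for Tcf4, 1.18 for Twist1, 1.136 for Zeb1 and 1.03 for Snai1, and the interval for Snai1, 0.872 to 1.22, held 1. The epithelial target genes went the other way, with 2 of 19 higher after 60 days, and summed epithelial markers were 1746 CPM after withdrawal and 276 after 60 days. With 1 library for each schedule there is no replicate check, and the part of the epithelial marker difference in these values was not tested.

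Between MamBo38 and MamBo43 TRT 5 of the 8 members did not overlap, as did 58.6% of all genes. Zeb2 was at a log2 difference of -0.05 ± 0.36 (edgeR adjusted p = 0.94). Twist2 was the member called, higher in MamBo38 by 1.45 ± 0.54 (edgeR adjusted p = 0.068). Tcf4 (0.70 ± 0.20), Prrx1 (0.83 ± 0.26) and Snai1 (0.95 ± 0.33) were higher with edgeR adjusted p of 0.0252, 0.0345 and 0.0505 but under the fold minimum, and Zeb1 was at 1.07 ± 0.46 (edgeR adjusted p = 0.11), without overlap and called when the fit held these 2 groups alone (edgeR adjusted p = 0.000522). So 1 member was called higher and 0 lower, where 10.2% of the 13782 genes were called in each direction. The Twist2 call was lost in 5 of the 6 fits that left out a library. With the trastuzumab schedule as a covariate, Snai1 was called in place of Twist2. A code in the library names, shared by 3 of the 4 MamBo38 libraries and by no other library, cannot be told apart from the line in those 3, and with the MamBo38 library of the other code alone no member was called.

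Against the starting line, MamBo38 had 7 of the 8 members called higher than in MamBo43, where 17.4% of all genes were called higher and 18.5% lower. The exception was Twist1 (log2 -0.07 ± 0.20, edgeR adjusted p = 0.817). Snai1 was among the 7, with 23.7 ± 3.7 CPM (SD, n = 4) against 7.78, a log2 difference of 1.61 ± 0.46 (edgeR adjusted p = 0.0158). Among libraries that share a code, which leaves 1 of MamBo38, it was 1.304 and was not called (edgeR adjusted p = 0.162). Against MamBo89, 6 members were called higher in MamBo38 and 0 lower, where 19.9% and 22% of all genes were. Since Zeb1, Snai2, Twist2 and Prrx1 had fewer than 10 counts in at least 1 MamBo89 library, this count is a description. Snai1 did not separate these lines (-0.08 ± 0.26, edgeR adjusted p = 0.786), and Twist1 was higher by 0.45 ± 0.13, under the fold minimum (edgeR adjusted p = 0.0102). Prrx1 stood at 13067 counts against 4, a ratio of 3086 with a 95% exact counting interval of 1205 to 11329. Of the distance between MamBo89 and MamBo38 on the scale of log2(CPM + 0.5), 77.9% was present in untreated MamBo43 for Prrx1, against 36.6% for Snai2, 25.3% for Zeb1, 21.5% for Zeb2, 20.8% for Tcf4 and -4.86% for Twist2. In MamBo43 TRT these shares were 89.9%, 80.3%, 84.1%, 101%, 69.6% and 68.1% in the same order. These comparisons share MamBo43 and MamBo38 libraries and are not independent. Markers differed as well, with Pdgfra at 48.2 CPM in MamBo43 and 817 to 988 in MamBo38, and Cd68 at 1.02 and 26.8 to 49.9. Thy1 was at 2.16 and at most 0.0558 CPM, and epithelial markers summed to 3147 and 1.25 to 2.46. Their part in the member values was not tested.

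Where trastuzumab left HER2 status as it was, the members showed no called change. In MamBo89, 6 members had enough counts to be tested between 2 treated and 2 untreated libraries, and 0 were called, as were 0% of 12046 genes in either direction. In MamBo38, 8 were tested with 0 called, as were 0% of 11861 genes in either direction. Of all genes, 186 and 503 had an unadjusted p under 0.05, and DESeq2 called 3 and 4 genes, none of them members. The log2 differences of the members ran from -1.48 (Zeb1) to 0.27 (Snai2) in MamBo89 and from -0.26 (Prrx1) to 0.35 (Snai1) in MamBo38. The Zeb1 value in MamBo89 rested on the AG3 library, which held 37 counts of Zeb1 against 3 to 10 in the other MamBo89 libraries, a ratio of 5.68 to the rest with a 95% exact counting interval of 3.15 to 10.6. Without it the difference was 0.66. Without MamBo89 replicate 2, which leaves AG3 as the only untreated library, the difference was -2.31.

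The difference between these responses was tested in a fit of 6 groups that was chosen after the data had been seen. Compared with its change in MamBo89, the change under trastuzumab in MamBo43 was larger for Zeb2 (difference 5.76 ± 0.89 on the log2 scale, edgeR adjusted p = 0.00766) and for Zeb1 (5.59 ± 1.07, edgeR adjusted p = 0.0149). It was also larger for Tcf4 (1.137 ± 0.405, edgeR adjusted p = 0.0897), in a contrast that called 22.2% of all genes. Without AG3 these differences were 4.39 for Zeb2, 3.47 for Zeb1 and 0.81 for Tcf4, the last of which was not called (edgeR adjusted p = 0.158). For Prrx1 and Twist2 no size is given, since they held too few counts to be tested within MamBo89. Compared with MamBo38, Twist2 (5.78 ± 1.25), Zeb2 (5.03 ± 0.79), Zeb1 (4.19 ± 0.86) and Prrx1 (1.27 ± 0.37) were called, with edgeR adjusted p of 0.0208, 0.0068, 0.0175 and 0.06, where 19.6% of all genes were. The difference for Snai1, Snai2 and Twist1 did not pass the test in either contrast, nor that of Tcf4 against MamBo38 (edgeR adjusted p = 0.106).

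Most partners and modulators of the factors did not pass the fold minimum. Of 6 class I bHLH partners and Id genes, 2 were called higher in the HER2-negative libraries and 0 lower, where 15.8% and 17% of all genes were. These were Id3, an inhibitor of bHLH dimers, at 129 ± 57 against 6.26 ± 4.36 CPM (log2 4.35 ± 0.52, edgeR adjusted p = 5.74e-05), and Id1 at 48.1 ± 19.5 against 23.7 ± 5.6 CPM (log2 1.02 ± 0.28, edgeR adjusted p = 0.0102). The class I genes Tcf3 (0.56 ± 0.19, edgeR adjusted p = 0.0297) and Tcf12 (0.71 ± 0.19, edgeR adjusted p = 0.00904) were higher by less than the fold minimum, and Id2 was at -0.77 ± 0.30 (edgeR adjusted p = 0.048). Of 12 co-repressors recruited by Zeb or Snail proteins, such as Ctbp1, Hdac1 and Kdm1a, 1 was called lower and 0 higher. This was Ezh2, a histone methyltransferase (-1.12 ± 0.23, edgeR adjusted p = 0.0021). The median log2 fold change was 0.01 for the co-repressors and 0.64 for the bHLH list, against -0.04 for all genes.

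Of 8 genes for Snail turnover and location, Pak1 (-2.22 ± 0.16, edgeR adjusted p = 3.93e-06), a kinase that phosphorylates Snail, and Fbxl14 (-1.15 ± 0.15), an F-box protein that targets it for degradation, were called lower, and Lats2 (1.72 ± 0.28), a Hippo pathway kinase, was called higher. Of these 8 genes 2 were thus called lower and 1 higher, where 17% and 15.8% of all genes were. In the annotation, 42.4% of the exon bases of Lats2 overlap another gene on the same strand. Of 13 upstream signals, 2 were called higher and 2 lower, shares close to the 15.8% and 17% of all genes. Hif1a, the hypoxia factor, rose by 1.66 ± 0.18 and Smad3, a TGF-beta effector, by 1.22 ± 0.22. Tgfb3, a TGF-beta ligand, was lower at 28.1 ± 3.3 against 326 ± 206 CPM (-3.54 ± 0.36), and Stat3 was lower (-1.51 ± 0.23). Their median was -0.19, and that of the Snail turnover list -0.02.

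The 16 other EMT-linked transcription factors, of which 15 were tested, were split, with 6 called higher and 4 lower, where 15.8% and 17% of all genes were. Their median was 0.56. Among those called higher without overlap, Hmga2, a chromatin protein that acts with Smads on Snai1, stood at 375 ± 150 against 11.1 ± 5.8 CPM (log2 5.09 ± 0.49), followed by Prrx2, the paralog of Prrx1 (3.62 ± 0.39), and the forkhead gene Foxc2 (3.47 ± 0.44). Those called lower were led by Snai3, the third Snail gene, at 0.121 ± 0.158 against 8.02 ± 5.48 CPM (-5.96 ± 0.98), then by Lef1, a Wnt pathway factor (-5.30 ± 0.65), and Foxq1 (-2.88 ± 0.996). By library, Snai3 was at 13.0, 11.9, 10.9 and 3.14 CPM in MamBo89 and at 1.10 in MamBo43, which is also HER2-positive. It was at 0.393 and 0.229 CPM in MamBo43 TRT and at most 0.0558 in MamBo38. Part of its difference thus lay between the HER2-positive lines. By HER2 status, the listed directions of Snai2 and Snai3 were opposite. In the annotation, 66.1% of the exon bases of Foxq1 overlap an antisense gene.

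**Figure D4:**
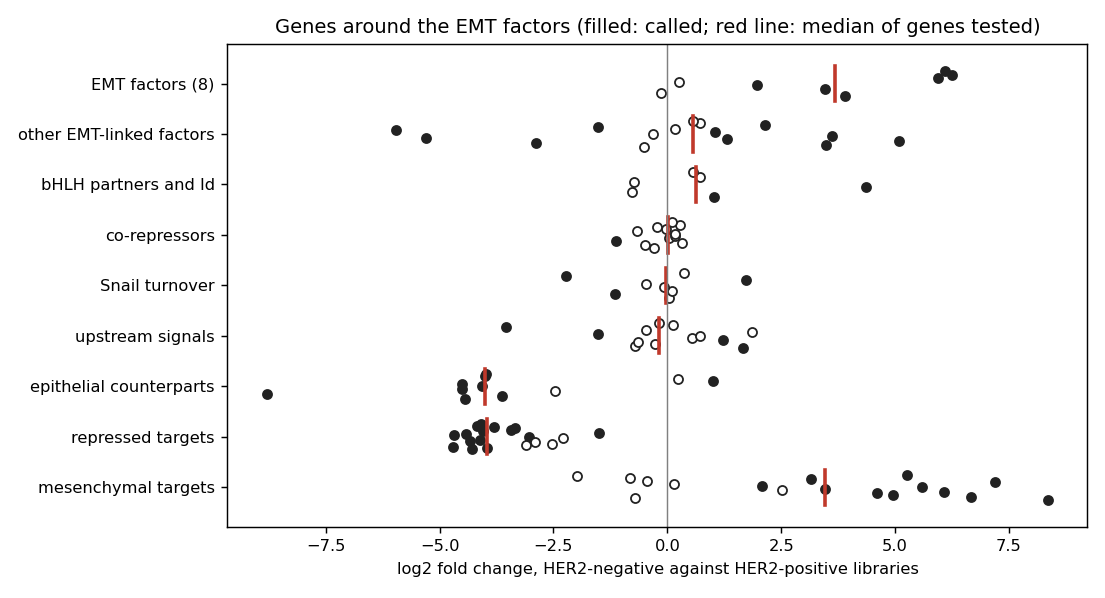
Log2 fold change by HER2 status of each gene tested in 9 lists around the EMT factors, with called genes filled and list medians in red. Epithelial counterparts and repressed targets lie mostly to the left, mesenchymal targets mostly to the right, and co-repressors near 0.

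Among 12 epithelial transcription and splicing factors that oppose the EMT, 11 were tested, and 8 were called lower and 1 higher, where 17% and 15.8% of all genes were. The median was -4.00. Elf5, a regulator of the mammary secretory lineage, was at 0.129 ± 0.225 CPM in the HER2-negative against 65.5 ± 23.1 CPM in the HER2-positive libraries (log2 -8.80 ± 0.85, edgeR adjusted p = 1.61e-05). Grhl2, an activator of epithelial junction genes that opposes Zeb1, was at 128 CPM in MamBo43, 30.5 and 10.6 in MamBo43 TRT and 0 to 0.391 in MamBo38 (log2 by HER2 status -4.52 ± 1.46, edgeR adjusted p = 0.0227). Esrp2, an epithelial splicing factor, was at 2.48 ± 3.85 against 57.1 ± 7.7 CPM (-4.52 ± 1.05, edgeR adjusted p = 0.00407). Ovol2, a direct repressor of Zeb1, was at 2.32, 1.08 and 0.727 CPM in the same MamBo43 and MamBo43 TRT libraries and at 0 in all 4 of MamBo38 (-3.99 ± 1.145, edgeR adjusted p = 0.0127). Esrp1, the paralog of Esrp2, was at 396 CPM in MamBo43, 351 after withdrawal and 82.0 after 60 days in MamBo43 TRT, and at most 0.0482 in MamBo38. The MamBo43 TRT library after withdrawal lay within the HER2-positive range for Esrp1, and it was not called by HER2 status (-2.46 ± 1.84, edgeR adjusted p = 0.282). The gene called higher was Klf4 (1.01 ± 0.44), whose groups overlapped. MamBo43 TRT, a mixed culture, held Zeb1 and Zeb2 transcripts and those of Grhl2 and Esrp1, which in bulk RNA may come from the same or from different cells, while MamBo38 held the Zeb transcripts with Grhl2 and Esrp1 at or near 0.

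Of 20 repressed targets 19 were tested, and 15 were called lower and 0 higher, where 17% and 15.8% of all genes were. The median was -3.97. Cdh1, which encodes E-cadherin, stood at 778 CPM in MamBo43, 202 and 71.9 in MamBo43 TRT and 0.835 to 1.5 in MamBo38 (log2 by HER2 status -4.30 ± 1.47, edgeR adjusted p = 0.029). Epcam, a cell adhesion molecule whose promoter window holds 2 E-boxes, stood at 635, then 159 and 30.7, and 0.0375 to 0.279 CPM (-4.34 ± 1.74, edgeR adjusted p = 0.0554). Cldn4, a tight junction gene with 1 E-box in its window, stood at 3.62 CPM in MamBo43, 0.687 and 0.841 in MamBo43 TRT and at most 0.0750 in MamBo38 (-4.70 ± 1.19, edgeR adjusted p = 0.00664). The tight junction genes Marveld2 (-4.69 ± 1.24) and Marveld3 (-4.42 ± 1.32) were lower by as much. Against MamBo43, 17 of the 20 targets were called lower in MamBo43 TRT and 1 higher, where 15.5% and 13.6% of all genes were. Against MamBo43 TRT, 19 of 20 were called lower in MamBo38, where 10.2% of all genes were, with a median of -7.27. The target higher in MamBo43 TRT was Cdh3, P-cadherin, at 0.0786 CPM in MamBo43, 0.981 and 11.3 in MamBo43 TRT and at most 0.0375 in MamBo38.

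Of 18 mesenchymal genes commonly induced in the EMT 17 were tested, and 11 were called higher and 0 lower, where 15.8% and 17% of all genes were. The median was 3.45. Vim, an intermediate filament of mesenchymal cells, stood at 1899 ± 1174 against 49.3 ± 26.6 CPM (log2 5.27 ± 0.65, edgeR adjusted p = 6.92e-05). Those with the largest differences without overlap in any library were Acta2, smooth muscle actin (8.37 ± 1.83), S100a4, a calcium-binding protein (7.18 ± 1.10), and the fibrillar collagen gene Col3a1 (6.67 ± 1.66). Cdh2, N-cadherin, was not called (-0.72 ± 0.37, edgeR adjusted p = 0.12). In MamBo43 against MamBo89, 10 of 18 of these genes were called higher and 1 lower, where 11% and 7.86% of all genes were, with a median of 2.35 against -0.07 for all genes, while 0 of the 20 repressed targets were called lower and 2 higher.

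**Figure D5:**
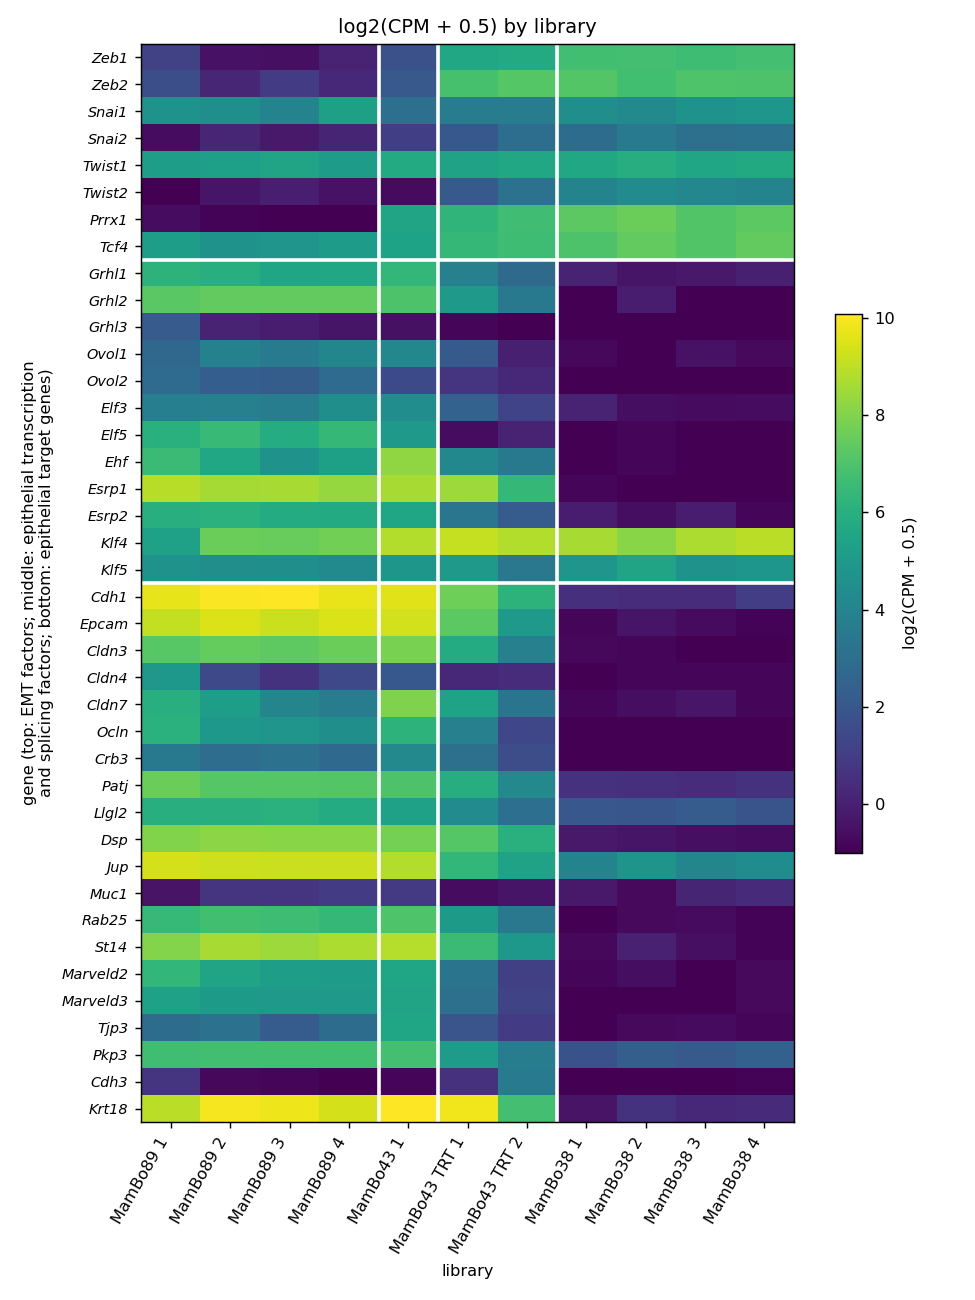
Level as log2(CPM + 0.5) of the 8 factors, the epithelial counterparts and the repressed targets in the 11 libraries, with white lines between groups. Grhl2, Cdh1 and Epcam are high in MamBo89 and MamBo43, lower in MamBo43 TRT and lowest in MamBo38. Jup, Pkp3 and Llgl2 stay at 2.99 CPM or more in MamBo38, Klf4 and Klf5 at 25.1 CPM or more, and Cdh3 is highest in MamBo43 TRT.

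Over the 11 libraries, the genes whose log2(CPM + 0.5) had the highest Pearson correlation with each member, a description without a test because the libraries share lines and HER2 status, were as follows. For Zeb1 they were Dpysl3, Spg20 and Poglut3 (r = 0.996, 0.995 and 0.994), and for Zeb2 Katnal1, Bcat1 and Cdsn (0.996 for each). For Prrx1 they were Zfp251, Nynrin and Cav1 (0.999, 0.999 and 0.997), and for Twist2 Trim71, Arhgap10 and Clba1 (0.997, 0.997 and 0.992). For Snai2 they were Pxk, Dmpk and Epb41l3 (0.991, 0.990 and 0.990), and for Tcf4 Gli3, Nid1 and Il12rb1 (0.991, 0.990 and 0.989). Snai1 was matched best by Tbx6, Nsun6 and Tepsin (0.965, 0.927 and 0.898) and Twist1 by Nrip1 and Thap1 (0.938 and 0.921). With a pseudocount of 5, none of the 3 genes listed for Zeb1, Snai2 or Twist2 stayed in place, and 1 did for Tcf4.

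In GENCODE M21 on GRCm38 the members lie apart from each other, except for a shared chromosome in some pairs. Prrx1 lies on chromosome 1 at 163245119 to 163313710 on the - strand and Twist2 on the same chromosome at 91801461 to 91848028 on the + strand. Zeb2 lies on chromosome 2 at 44983632 to 45117395 on the - strand and Snai1 at 167538195 to 167542814 on the + strand. Twist1 lies on chromosome 12 at 33957671 to 33959829 and Snai2 on chromosome 16 at 14705852 to 14709385, both on the + strand. Zeb1 lies on chromosome 18 at 5591860 to 5775467 and Tcf4 at 69343356 to 69689079, also on the + strand. Counts cover the exons of a gene, and 3.27% of the exon bases of Zeb2 and 1.93% of those of Zeb1 overlap antisense genes.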

How the data were processed

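RNA of 11 cultures of MamBo cell lines had been sequenced, 1 column each in the table, with the TruSeq RNA v2 kit, which keeps no strand, in single-end mode over 75 nucleotides. Per the submitters' processing notes and the methods of the study, the authors aligned reads with STAR 2.5 to mm10 and deposited expected counts from RSEM 1.3.0. These expected counts, not normalized, were whole numbers for all 21846 genes, so none was rounded. The methods speak of replicates of each sample, and whether a column pools them is not given in the sources used here.

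Groups followed the labels. The 4 groups, or HER2 status, were fitted in R 4.3.3 with edgeR 4.0.16 (filterByExpr, min.count 10 and min.total.count 15, TMM, glmQLFit and glmQLFTest, Benjamini-Hochberg adjustment over all genes tested, prior count 0.125). The fit over lines used 13782 genes and that over HER2 status 12364. SE was taken as the size of the log2 difference over the root of F. CPM are counts over TMM-scaled sizes of all 11 libraries. Intervals of count ratios are exact (Clopper-Pearson, scipy 1.17.1) and, like the floor of 3 counts, cover counting error only, since reads carried no molecular identifiers. Total counts ran from 17040454 to 27127662, and the number of libraries limited precision. Low counts limited it too for some members, such as Twist2 with 3 counts in MamBo43 and Prrx1 with 4 over MamBo89. The test was also run on simulated data.

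The members and gene lists were chosen with earlier results of these data known. Named besides the members are, from each list, for each direction, up to 3 called genes of largest log2 difference whose HER2 groups did not overlap, and the textbook genes Grhl2, Ovol2, Esrp1, Tcf3, Tcf12, Id1, Id2, Id3, Cdh1 and Epcam. Vim, Cdh2, Cdh3, Klf4, Klf5, Cldn4, Jup, Pkp3, Llgl2, the listed examples of co-repressors and markers were added outside this rule. Likeness used members with a mean of at least 1 CPM. One gene of the likeness lists is not reported here. Alternatives were DESeq2 1.42.0, RLE size factors, other filters and thresholds, covariates (the trastuzumab schedule was added after the data were seen), subsets and leaving out libraries. RefSeq promoters (GRCm38.p6) were not found for Zeb1, Snai2 and Tcf4.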

Additional observations from a re-analysis of the deposited data

Results flagged for a closer look

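Among the 32 sets of libraries in which the highest and lowest value of a member were compared with the rest by Dixon's ratio, 1 stood apart, where chance gives about 1 in 20. In the 5 HER2-positive libraries the MamBo43 library was far above the others for Prrx1, with a gap of 0.997 of the whole range (44.7 CPM against at most 0.146 in MamBo89). The tumor of origin differs between them, and its part was not tested.

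The change under trastuzumab differed between the lines, by a test of the difference in edgeR. Relative to MamBo89, the log2 change in MamBo43 was larger by 5.59 for Zeb1, 5.76 for Zeb2 and 1.137 for Tcf4, and without AG3 by 3.47, 4.39 and 0.81. Relative to MamBo38, it was larger by 4.19 for Zeb1, 5.03 for Zeb2, 5.78 for Twist2 and 1.27 for Prrx1. MamBo43 changed HER2 status under treatment and the other lines did not, and the baseline of MamBo43 is 1 library. The summed epithelial markers fell from 3147 CPM to 1746 and 276 in MamBo43 TRT, and their part in these differences was not tested.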

How the results depend on the processing

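No paired analysis was possible because the labels give no replicate numbers that groups share. The trastuzumab schedule, which lines share, was added as a covariate after the data were seen and left 3 members called for MamBo43 against MamBo89, where the Zeb genes were lost, 5 for MamBo43 TRT against MamBo43, where Snai2 was lost, and Snai1 in place of Twist2 for MamBo38 against MamBo43 TRT. With RLE size factors, no filter or DESeq2 every count of called members stayed within 1.5 times its value. Requiring 10 counts in every library, which removes low members from the test, left 2 called by HER2 status, 2 for MamBo38 against MamBo89, 2 for MamBo43 against MamBo89, 2 for MamBo43 TRT against MamBo43, 3 for MamBo38 against MamBo43 and 0 for MamBo38 against MamBo43 TRT. Sums per line and HER2 status left 0. For MamBo43 against MamBo89, the 2 groups alone or untreated libraries alone gave 1, and an adjusted p under 0.05 gave 3. For MamBo38 against MamBo43 TRT, the 2 groups alone gave 2, and shared codes or an adjusted p under 0.05 gave 0. The cause was not tested. Leaving out each library gave 3 to 5 for MamBo43 against MamBo89, 3 to 6 for MamBo43 TRT against MamBo43, 0 to 2 for MamBo38 against MamBo43 TRT and 0 to 1 for trastuzumab in MamBo89.

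Directions turned for values that were not called in the main comparison. By HER2 status, Snai1 was 1.35 and Twist1 -0.14 with the tumor as a covariate, and Snai1 was 0.21 with untreated libraries, 0.14 without MamBo43 TRT and 0.18 with sums. Twist1 in MamBo38 against MamBo43 was 0.14 within the shared code. Without AG3, the trastuzumab difference in MamBo89 was 0.66 for Zeb1, 0.72 for Zeb2, -0.41 for Snai2 and 0.30 for Tcf4. Within the code found only in MamBo38 it was -0.11 for Zeb2, 0.23 for Snai2, 0.043 for Twist1 and 0.061 for Twist2. Leaving out each library gave, for Snai1, -0.35 to 0.18 by HER2 status and -0.27 to 0.20 for MamBo38 against MamBo89, and for Zeb2 -0.21 to 0.12 for MamBo38 against MamBo43 TRT. In MamBo89 under trastuzumab it gave -2.51 to 0.66 for Zeb1, -1.36 to 0.72 for Zeb2, -0.67 to 0.71 for Snai1, -0.41 to 1.65 for Snai2, -0.15 to 0.24 for Twist1 and -0.28 to 0.30 for Tcf4. In MamBo38 it gave -0.14 to 0.041 for Zeb1, -0.11 to 0.31 for Zeb2, -0.38 to 0.23 for Snai2, -0.23 to 0.043 for Twist1, -0.30 to 0.061 for Twist2 and -0.16 to 0.23 for Tcf4. Of 809 values of single members under the alternatives, 725 kept direction and side of the threshold. Some of these values repeat others, since AG3 is MamBo89 replicate 1 and the stricter threshold reuses the main fold changes. Values that were called in neither setting are among those kept.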
